A study of Mus musculus with 4 samples.

Results

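Chromatin accessibility was examined at 9 genes of homologous recombination repair (Atm, Mre11a, Rad50, Nbn, Brca1, Palb2, Brca2, Rad52 and Rad54l) in mouse embryonic fibroblasts with and without the histone acetyltransferase HAT1. The sites were those that overlapped the body of a gene, or lay within 10 kb of its transcription start, in GENCODE gene models on mm10. This gave 17 of the 82325 sites in the series. Of these, 10 lay within 1 kb of a gene's start and are called promoter sites, and the other 7 lay elsewhere. Atm, Palb2, Rad52 and Mre11a had 1 site each, Brca2, Rad50 and Nbn had 2, Brca1 had 3 and Rad54l had 4.

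The assay was ATAC-Seq, which marks open DNA by letting Tn5 transposase insert adapters into it, on 100000 cells per library. The cells, called imMEFs, were fibroblasts of C57bl6 background from mid-gestation embryos that had been immortalized with a plasmid carrying the SV40 T antigen and grown in DMEM with serum. The 2 lines labelled HAT1 WT (HAT1+/+, here WT) were compared with the 2 lines labelled HAT1 KO (HAT1-/-, here KO), 1 library per line. All 4 lines carried the T antigen, so the comparison was made in transformed cells, each line being a separate culture. The p-values, from limma, used the spread between these lines, drawn at each site towards that of sites with similar values. The labels name no treatment that damages DNA.

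Homologous recombination repairs a DNA break by copying an intact sister chromatid, and so it works mainly in S and G2 phases. ATM is a kinase that is activated at breaks by the complex of MRE11, RAD50 and NBN, which holds the broken ends and starts to trim them. BRCA1 promotes further trimming and, through PALB2, brings in BRCA2, which prepares the trimmed single-stranded DNA for strand exchange. RAD52 anneals complementary strands, and RAD54L is a motor protein that helps the broken strand invade its partner. HAT1 acetylates newly made histone H4 before it is assembled into chromatin, and the comparison asks how accessible these genes were when it was missing.

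All 9 genes had an open promoter in every library, and no site of these genes differed between the genotypes by the rule used for calls, a limma p under 0.01 and a log2 fold change of 1 or more in size. Of all 82325 sites, 307 (0.373%) were called. At that share of calls, a count of 0 among 17 sites is no result about these genes. With limma, 1 of the 17 sites, the promoter site of Brca1, had an unadjusted p under 0.05, against 3.13% of all sites. No site of the series had a Benjamini-Hochberg adjusted p from limma under 0.05, and each of the 17 had an adjusted p of 1. An exact permutation test of 2 lines against 2 cannot give a two-sided p below 0.333. In these bulk libraries, more cells with an open site and a wider opening in each cell cannot be told apart.

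The sequences just upstream of 4 of these genes are shown because their promoter sites mark the ends of the data. Brca1 had the only site past an unadjusted p of 0.05, Atm had the highest promoter level, Rad54l had the change nearest to 0, and Brca2 had no neighbour that starts beside it. They come from RefSeq on GRCm38.p6 and lie wholly inside the promoter site of their gene. Each is written 5′ to 3′ on the strand of its gene and stops short of a neighbouring start. It ends at the base before the GENCODE or the RefSeq start, whichever lies farther upstream. Capitals mark matches on either strand to TGACGT, the core of a cAMP response element. They also mark the box read as CCAAT, the GC box spelled GGGCGG, the E2F core spelled TCCCGC, and the TATA box spelled TATAAA.
Brca1 (chr11:101551956-101552148, minus strand): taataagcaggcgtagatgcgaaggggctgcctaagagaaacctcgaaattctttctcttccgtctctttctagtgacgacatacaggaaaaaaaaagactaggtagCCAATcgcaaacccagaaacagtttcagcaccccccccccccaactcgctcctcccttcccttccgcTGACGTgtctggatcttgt
Brca2 (chr5:150522421-150522620, plus strand): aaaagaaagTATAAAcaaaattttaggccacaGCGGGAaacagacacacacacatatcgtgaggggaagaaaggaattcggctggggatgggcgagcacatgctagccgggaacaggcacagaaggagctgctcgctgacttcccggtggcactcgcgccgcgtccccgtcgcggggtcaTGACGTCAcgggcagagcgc
Rad54l (chr4:116123691-116123839, minus strand): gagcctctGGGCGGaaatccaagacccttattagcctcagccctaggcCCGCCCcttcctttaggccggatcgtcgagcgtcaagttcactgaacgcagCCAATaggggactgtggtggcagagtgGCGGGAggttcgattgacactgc
Atm (chr9:53536741-53536921, minus strand): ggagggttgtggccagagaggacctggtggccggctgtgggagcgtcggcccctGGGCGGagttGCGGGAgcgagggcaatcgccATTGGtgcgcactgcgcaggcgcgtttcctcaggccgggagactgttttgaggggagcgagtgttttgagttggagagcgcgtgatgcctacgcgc

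Matches were sought in the 250 bases upstream of the RefSeq start, which at Atm ran past the GENCODE start. This window was not cut at the start of a neighbouring gene. Such a sequence was matched for 7 of the 9 genes, the others being Rad50 and Nbn. The comparison set was 32817 RefSeq promoters of all kinds, counted by position and not by gene. It was not matched to the 7 genes in GC content, CpG content or openness. Whether their shares differ from those of similar promoters was not tested. The E2F core was present in Brca2, Rad52, Rad54l and Atm, 4 of 7, against 16.9% of all promoters. The core TGACGT was present in Brca1, Brca2 and Mre11a, 3 of 7, against 6.46%. The GC box was found in 5 of 7 against 32.7%, CCAAT in 4 of 7 against 33.8%, and CCGGAA, the core bound by ETS factors, in 3 of 7 against 12.02%. TATAAA was found in Brca2 alone, against 12.4% of all promoters, and TTTGAA, the cell cycle homology element, in 0 of 7 against 16.0%. The E2F core and the GC box can share bases. The E2F core and GC box of Rad52, and CCGGAA at Brca1 and Palb2, lay outside the stretch between the gene's start and its neighbour's. A match describes the letters of this window and is not evidence of binding.

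The promoters of 6 of the 9 genes were shared with a gene that starts within 1 kb and is read in the opposite direction, and the same site covered both starts. Nbr1, an autophagy receptor gene, starts 194 bases from Brca1. Npat, a regulator of histone gene transcription, starts 307 bases from Atm, and Dctn5, a subunit of dynactin, 56 bases from Palb2. Pomgnt1, a glycosyltransferase gene, starts 150 bases from Rad54l, and the noncoding gene 4930540M05Rik starts 45 bases from Rad52. The starts of Mre11a and Ankrd49 overlap by 202 bases. The values of these sites therefore belong to both genes of a pair. Brca2, Rad50 and Nbn had no such neighbour.

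Levels can be compared between genes as normalized counts per kb of the site, given here as the mean of the 4 libraries. Atm had the highest level, 668 per kb (603 to 820 across libraries), above 98.3% of the 13285 promoter sites of protein-coding genes. Brca1 followed at 554 (487 to 646), Mre11a at 453 (440 to 481) and Rad54l at 392 (385 to 396). Nbn was at 372 (302 to 479), Palb2 at 369 (297 to 490), Rad52 at 267 (250 to 305), Brca2 at 234 (223 to 264) and Rad50 at 197 (184 to 214). The median promoter site had 244 per kb, so Brca2 and Rad50 lay below it. In this order, Brca1 and Mre11a, Mre11a and Rad54l, and Brca2 and Rad50 were apart in all libraries, and each other pair of neighbours overlapped. The GC content of the 9 sites ran from 52.6% at Rad54l to 62.3% at Palb2, against a median of 61.5% over promoter sites. The ratio of observed to expected CpG ran from 0.451 at Rad54l to 0.990 at Brca2, against a median of 0.736.

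**Figure D1:**
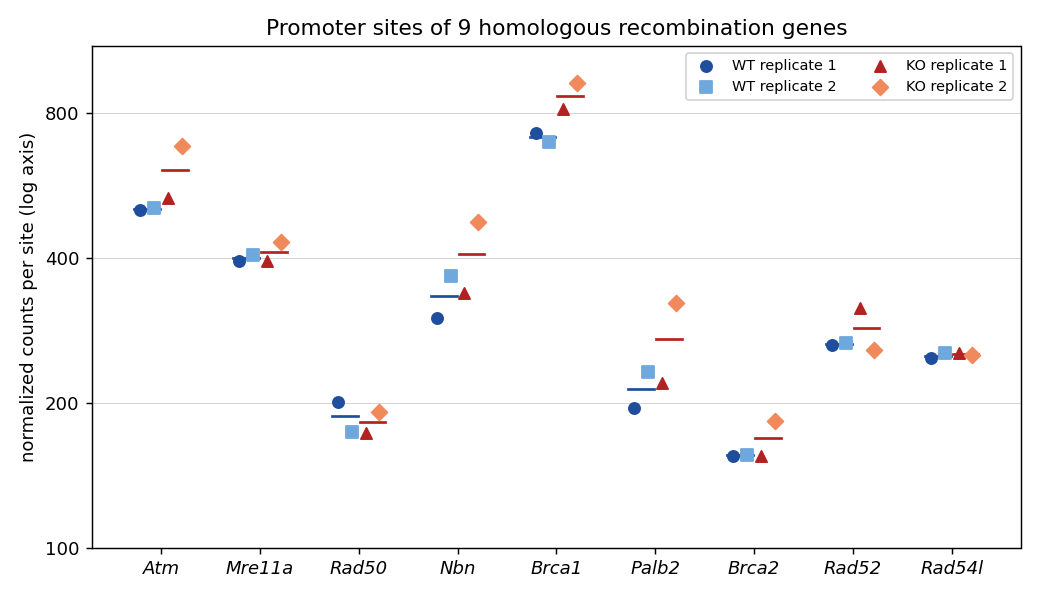
Normalized counts (log axis) of the strongest promoter site of each of the 9 genes in each library, ordered by role; points are libraries and short bars are the means of the 2 WT (blue) and the 2 KO lines (red). The KO points lie above both WT points at Brca1 and Atm, and the genotypes overlap or meet at the other 7 genes.

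Atm, the kinase that signals breaks, had 1 site, at its start (chromosome 9, 53536420 to 53537252). It held 502 and 507 normalized counts in the WT lines and 533 and 683 in the KO lines. Both KO lines lay above both WT lines, but KO replicate 1 by little. The means were 505 ± 3.54 in WT and 608 ± 106 in KO (SD, n = 2 each), and the log2 fold change of KO against WT was 0.26 ± 0.14 (SE, as after every log2 fold change given here; limma, unadjusted p = 0.114). Without KO replicate 2 the log2 fold change was 0.08.

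The genes of the MRE11, RAD50 and NBN complex showed no common direction. The Mre11a promoter site (chromosome 9, 14784291 to 14785184), at the gene of the nuclease subunit, held 393 and 405 normalized counts in WT and 393 and 430 in KO. The groups overlapped, and the log2 fold change was 0.04 ± 0.13 (limma, unadjusted p = 0.745); its sign turned to -0.03 with equal library totals and to -0.09 with quantile normalization. The Rad50 promoter site (chromosome 11, 53706677 to 53707615), at the gene of the subunit that bridges DNA ends, held 201 and 174 in WT and 173 and 191 in KO. The groups overlapped, with a log2 fold change of -0.04 ± 0.21 (limma, unadjusted p = 0.851), which changed sign when WT replicate 1 or KO replicate 1 was left out.

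The Nbn promoter site (chromosome 4, 15957734 to 15958725), at the gene of the subunit that recruits ATM, held 300 and 366 normalized counts in WT and 337 and 475 in KO. KO replicate 2 was the highest library, and KO replicate 1 lay between the WT lines. The log2 fold change was 0.27 ± 0.21 (limma, unadjusted p = 0.236), and 0.02 without KO replicate 2. The second site of Nbn, over an exon 28.6 kb inside the gene (chromosome 4, 15986286 to 15986817), held 40 in both WT lines and 37 and 48 in the KO lines, with a log2 fold change of 0.07 ± 0.36. The second site of Rad50, in an intron 50.3 kb from its start (chromosome 11, 53656941 to 53657140), was near the low end of all 17 with 26 and 16 in WT and 22 and 11 in KO, with a log2 fold change of -0.37 ± 0.61.

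Brca1, Palb2 and Brca2 encode proteins that act in sequence once the ends are trimmed. The Brca1 promoter site, the longest of the 17 at 1424 bp (chromosome 11, 101551685 to 101553108), held 727 and 694 normalized counts in the WT lines and 813 and 920 in the KO lines. Each KO line exceeded both WT lines. The means were 711 ± 23.3 in WT and 867 ± 75.7 in KO (SD, n = 2 each), a log2 fold change of 0.28 ± 0.09 with a 95% interval of 0.06 to 0.51, or 1.22-fold (limma, unadjusted p = 0.0208, Benjamini-Hochberg adjusted p = 1). This is far below the fold needed for a call. Among promoter sites, 2.39% had an unadjusted p under 0.05 with the higher value in KO. The sign held in all 11 alternatives, but the unadjusted limma p was above 0.05 in 6 of them. With quantile normalization the log2 fold change was 0.05 (limma, unadjusted p = 0.540), and with equal library totals it was 0.22 (limma, unadjusted p = 0.0530). Without the intensity trend the limma p was 0.313. It was 0.0956 without WT replicate 1, 0.157 without WT replicate 2 and 0.0729 without KO replicate 2, with log2 fold changes of 0.32, 0.25 and 0.19 by limma. Without KO replicate 1 the log2 fold change was 0.37 (limma, unadjusted p = 0.0136).

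Brca1 also had a pair of intronic sites. The one 11.2 kb inside the gene (chromosome 11, 101540513 to 101540942) held 105 and 83 normalized counts in WT and 80 and 137 in KO, and the KO lines lay on either side of WT. The one 15.0 kb inside (chromosome 11, 101536760 to 101537110) held 38 and 40 in WT and 12 and 33 in KO, and was the only one of the 17 with both KO lines below both WT lines. Its log2 fold change of -0.93 ± 0.56 had a 95% interval of -2.28 to 0.43 (limma, unadjusted p = 0.146), and it rested on KO replicate 1: without that library it was -0.23, and without KO replicate 2 it was -1.62. The promoter and the inner site of Brca1 thus had opposite signs, neither with an adjusted p below 1.

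The Palb2 promoter site (chromosome 7, 122132638 to 122133294), at the gene that links BRCA1 to BRCA2, held 195 and 232 normalized counts in WT and 220 and 322 in KO. Its log2 fold change of 0.32 ± 0.24 was the highest of the 9 strongest promoter sites, but the groups overlapped (limma, unadjusted p = 0.226) and the change was 0.05 without KO replicate 2. On chromosome 7 as a whole, KO replicate 2 had a median 0.16 (log2) above the other libraries. When each library was centred on its median per chromosome, the Palb2 change was still 0.31 (limma, unadjusted p = 0.180). The Brca2 promoter site (chromosome 5, 150522345 to 150523038), at the gene of the last protein in this sequence, held 155 and 156 in WT and 155 and 183 in KO, a change of 0.11 ± 0.22. A weak site 2.8 kb before the start of Brca2 (chromosome 5, 150519690 to 150519909) held 20 and 28 in WT and 27 and 24 in KO, with a log2 fold change of 0.10 ± 0.45.

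The Rad52 promoter site (chromosome 6, 119902391 to 119903420), at the gene of the annealing protein, held 264 and 266 normalized counts in WT and 314 and 257 in KO. The KO lines lay on either side of the WT lines, with a log2 fold change of 0.10 ± 0.18. The Rad54l promoter site (chromosome 4, 116123467 to 116124108), at the gene of the motor protein, was the most even: it held 247 and 254 in WT and 254 and 251 in KO. Its log2 fold change was 0.01 ± 0.16, with a 95% interval of -0.39 to 0.41, and it turned to -0.06 with equal library totals, to -0.08 with quantile normalization and below 0 when centred on promoter sites. Only 4.07% of all promoter sites had a smaller absolute change.

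The other 3 sites of Rad54l were weak and did not share a sign. The second promoter site, 0.7 kb inside the gene (chromosome 4, 116122852 to 116123152), held 57 and 45 normalized counts in WT and 65 and 63 in KO, a change of 0.33 ± 0.33. The site 27.2 kb inside, where Rad54l meets Lrrc41 (chromosome 4, 116096341 to 116096675), held 31 and 25 in WT and 53 and 48 in KO. Both KO lines were higher there, and the log2 fold change of 0.83 ± 0.37 was the highest of the 17 (95% interval -0.05 to 1.72; limma, unadjusted p = 0.0606). The site 13.1 kb inside (chromosome 4, 116110433 to 116110715) held 25 and 22 in WT and 11 and 27 in KO, a change of -0.42 ± 0.59 that turned to 0.20 without KO replicate 1. All 3 overlapped an exon of some annotated transcript.

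**Figure D2:**
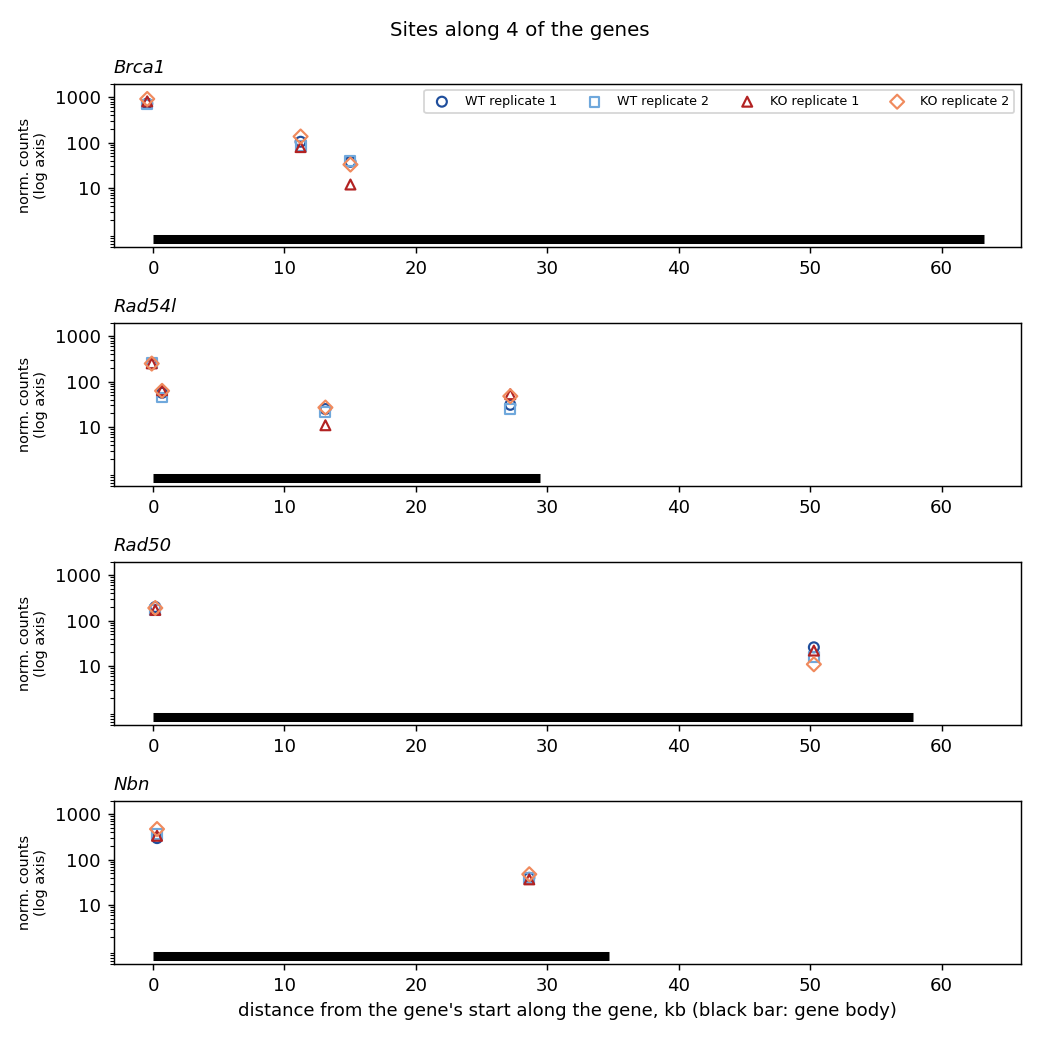
Normalized counts (log axis) of every site of Brca1, Rad54l, Rad50 and Nbn in each library, against the distance of the site's centre from the gene's start in kb; open symbols are libraries and black bars the gene bodies. In each gene the promoter site was the highest, and inner sites held between 11 and 137 normalized counts.

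Across the 17 sites, 13 log2 fold changes were above 0 and 4 below, with a median of 0.10 and a range from -0.93 to 0.83, beside 50.7% above 0 and a median of 0.0062 over all sites. Both KO lines exceeded both WT lines at 4 of 17, where the share over all sites was 14.6%, and both lay below at 1 of 17, against 14.3%. An absolute change under 0.5 was seen at 15 of 17 sites (88.2%), beside 76.3% of all sites, and 0 of 17 had a limma log2 fold change of 1 or more in either direction, beside 6.42%. The 95% intervals of the 9 strongest promoter sites spanned folds from 0.685 at Rad50 to 1.87 at Palb2, so a change to 2-fold or to 0.5-fold lay outside every one of them. The intervals of the 7 sites away from promoters were wider, with a median SE of 0.45 against 0.19 at the 10 promoter sites, and those of 6 reached a log2 fold change of 1 in at least 1 direction.

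**Figure D3:**
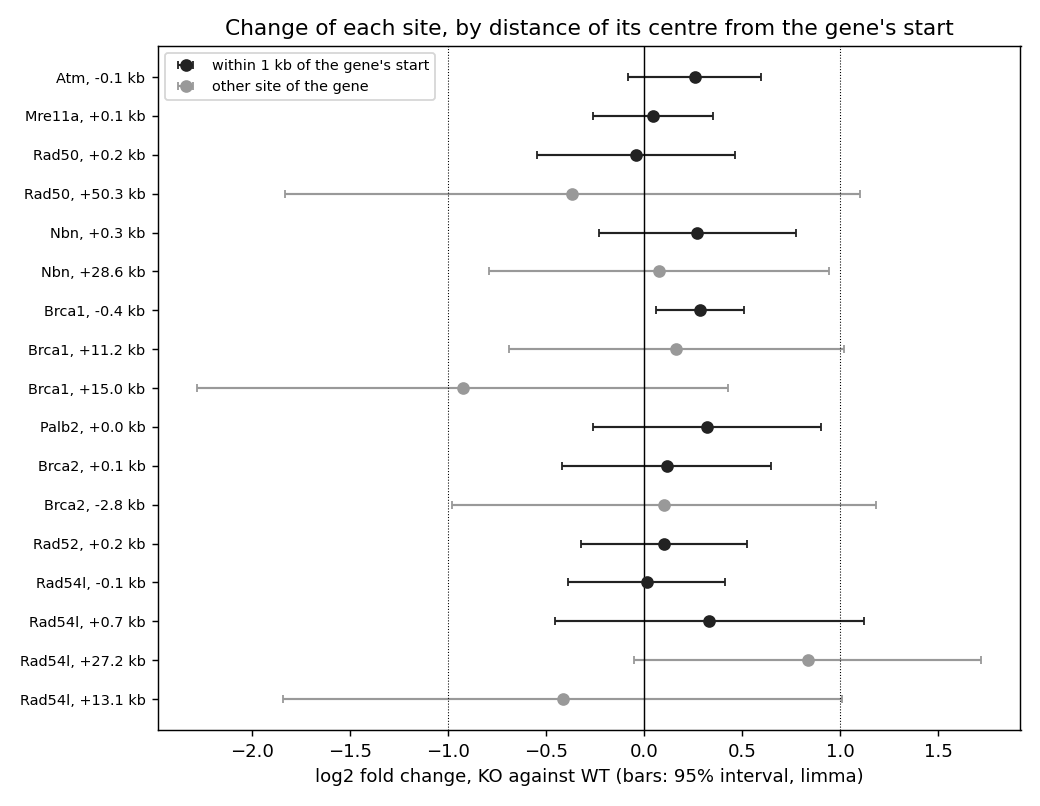
Log2 fold change of KO against WT (points) with 95% intervals from limma (bars) for all 17 sites, named by gene and by the distance of the site's centre from the gene's start; black is promoter sites, grey is other sites, and dotted lines mark an absolute change of 1. With the values as deposited, the Brca1 promoter interval, 0.06 to 0.51, was the only one that did not cross 0, and in 6 of 11 alternatives its p was above 0.05.

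With the values as deposited, most promoter sites had a higher mean in KO, and so did most other strong promoters. Of the 10 promoter sites, 9 had a log2 fold change above 0, with a median of 0.19, beside 54.2% and a median of 0.02 over all 13285 promoter sites. Both KO lines were above both WT lines at 3 of the 10, beside 20.5% of promoter sites. Strong promoters are here the 7669 promoter sites whose mean count per site, not per kb, reached that of Brca2, the lowest of the 9. Among them, 70.1% were above 0, the median was 0.08 and 30.5% had both KO lines above both WT lines. Of the 9 strongest sites, 8 were above 0 with the values as deposited, 7 when each library was centred on promoter sites, and 6 with equal library totals or quantile normalization, where Mre11a and Rad54l were below 0 too. With quantile normalization the median was 0.05 over the 10 sites and -0.04 over strong promoters, of which 39.7% were above 0. With equal library totals these medians were 0.12 and 0.01.

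KO replicate 2 moved with this direction. Its values exceeded the mean of the other libraries at 7 of the 9 strongest promoter sites, with a median difference of 0.21 (log2), against 0.09 over strong promoters and 0.03 over all promoter sites. WT replicate 1 was above the others at 1 of 9, and WT replicate 2 and KO replicate 1 at 3 of 9. Without KO replicate 2, the median over the 10 promoter sites was 0.04, beside 0.05 over strong promoters in the same fit, and 6 of the 9 were above 0. Without KO replicate 1, it was 0.27, beside 0.11. KO replicate 2 was also the shallowest library, with about 5650000 reads in sites, and the part of depth or of this line in the result was not tested.

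**Figure D4:**
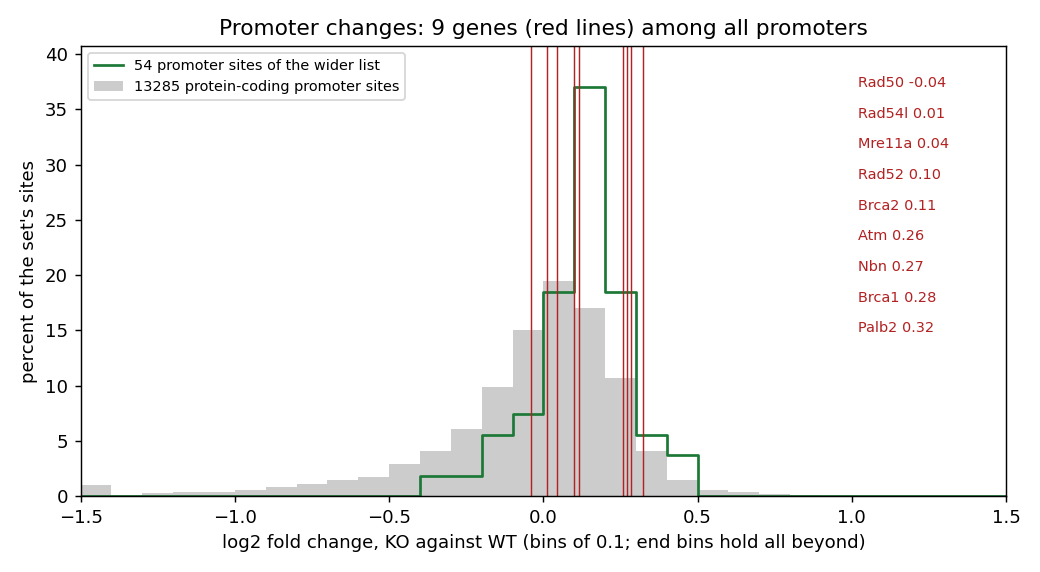
Percent of sites by log2 fold change of KO against WT, in bins of 0.1. Grey bars are all protein-coding promoter sites. The green line is the promoter sites of a wider list of genes in and around the pathway, and red lines mark the 9 genes. The 9 values run from -0.04 at Rad50 to 0.32 at Palb2. Palb2 lay above 94.3% of all promoter sites, Brca1 above 91.8%, Nbn above 90.8% and Atm above 89.5%. The others were Brca2 at 67.9%, Rad52 at 65.3%, Mre11a at 54.4%, Rad54l at 47.9% and Rad50 at 39.2%.

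Other genes in and around the pathway were described by the same counts. A wider list of 50 genes held 170 sites, none shared with the 9. Among its genes were the end-resection and checkpoint genes, the Fanconi anemia genes, Trp53bp1 and Polq. By limma 0 of the 170 sites were called, where 0.373% of all sites were. At that share of calls, a count of 0 in a list of this size is no result about the list. By limma 8 of the 170 had an unadjusted p under 0.05, all higher in KO. Over all sites the share was 3.13% in either direction, and 1.54% with the higher value in KO. Of the 8, 4 were promoter sites, and the share over strong promoter sites was 4.38% in either direction. Of its 54 promoter sites, 45 were above 0 and 9 below, with a median log2 fold change of 0.13, beside 54.2% above 0 over all promoter sites and 70.1% over strong ones. Of the 116 other sites 71 were above 0 and 45 below, with a median of 0.08. Rad51b alone held 40 of the 170 sites, and only 2 of its sites were promoter sites. A list of 12 genes of end joining, the route that rejoins breaks without a template, held 41 sites. By limma 0 of the 41 were called, beside the same 0.373%, and 1 had an unadjusted p under 0.05, beside 3.13% of all sites. All 11 promoter sites were above 0, with a median of 0.17, beside the same 54.2% and 70.1%. With quantile normalization the promoter medians of these lists were 0.03 and 0.07. The medians of the 3 sets of genes were not tested against each other.

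Several of the 8 sites lay on chromosomes where a whole library stood apart from the others, which is given beside them. Sfr1 encodes a partner of SWI5 in recombination, and its promoter site on chromosome 19 held 721 and 710 normalized counts in WT and 1045 and 874 in KO, a log2 fold change of 0.42 (limma, unadjusted p = 0.00607). The promoter site of Mus81, a nuclease that resolves joined DNA molecules, and a site 2.2 kb before it, on the same chromosome, had log2 fold changes of 0.36 and 0.47 (limma, unadjusted p = 0.0230 and 0.00862). The median of KO replicate 1 over chromosome 19 was 0.47 above the other libraries. When each library was centred on its median per chromosome, the change at Sfr1 was 0.21 (limma, unadjusted p = 0.079) and those at Mus81 were 0.16 and 0.27, with unadjusted p of 0.265 and 0.152.

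The promoter sites of Xrcc3, a recombination gene, and Rad1, part of the checkpoint clamp, had smaller values under the same centring. Xrcc3 on chromosome 12 held 598 and 663 normalized counts in WT and 736 and 802 in KO, a log2 fold change of 0.29 (limma, unadjusted p = 0.0259) and 0.21 when centred (limma, unadjusted p = 0.0624). Rad1 on chromosome 15 held 252 and 265 in WT and 348 and 346 in KO, a change of 0.42 (limma, unadjusted p = 0.0279) and 0.34 when centred (limma, unadjusted p = 0.0759). The groups were apart at both genes. Over chromosome 12, which also holds Rad51b, WT replicate 1 had a median of -0.18 (log2) against the other libraries. For each other library that median was 0.07 to 0.08. Over chromosome 15 it was 0.22 for KO replicate 1.

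The other 3 of the 8 sites, all in introns, kept an unadjusted p under 0.05 when centred. An intronic site of Top3a, a topoisomerase that dissolves joined molecules, held 31 and 16 normalized counts in WT and 61 and 48 in KO, a log2 fold change of 1.24 (limma, unadjusted p = 0.0330). In Rad51b, a recombination gene whose introns are very long, a site 44.1 kb inside held 70 and 40 in WT and 122 and 99 in KO (1.04, limma, unadjusted p = 0.0302), and one 207 kb inside held 124 and 121 in WT and 172 and 218 in KO (0.66, limma, unadjusted p = 0.0304). The only end joining site of this kind, in an intron of Prkdc, the gene of the DNA-dependent kinase, held 218 and 187 in WT and 284 and 269 in KO, a change of 0.45 (limma, unadjusted p = 0.0469). None of these had an adjusted p below 1.

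The neighbourhoods of the 9 genes were compared with the rule used for HAT1-dependent accessibility domains, regions in which the mean log2 fold change of 25 consecutive sites is under -0.58. The study applied it to primary fibroblasts and joined nearby regions. Here only the cutoff was applied, to the imMEF lines, and the study's own domains were not used. The windows centred on the 9 promoter sites had means from -0.17 at Mre11a and Palb2 to 0.10 at Brca1. Of the 9, 0 were under the cutoff, beside 3.42% of all windows and 2.18% of those centred on promoter sites. At these shares, 0 of 9 is no result about these genes. Around Nbn the KO lines differed, at -0.43 for KO replicate 1 against 0.24 for KO replicate 2, and around Brca2 they stood at -0.42 and 0.09. The WT lines also differed around Brca2, by 0.82 between replicates 1 and 2. These windows spanned 1.14 and 1.05 Mb. The widest window, 1.22 Mb around Palb2, had KO lines at -0.21 and -0.13, and the narrowest, 0.273 Mb around Brca1, had them at 0.14 and 0.06.

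**Figure D5:**
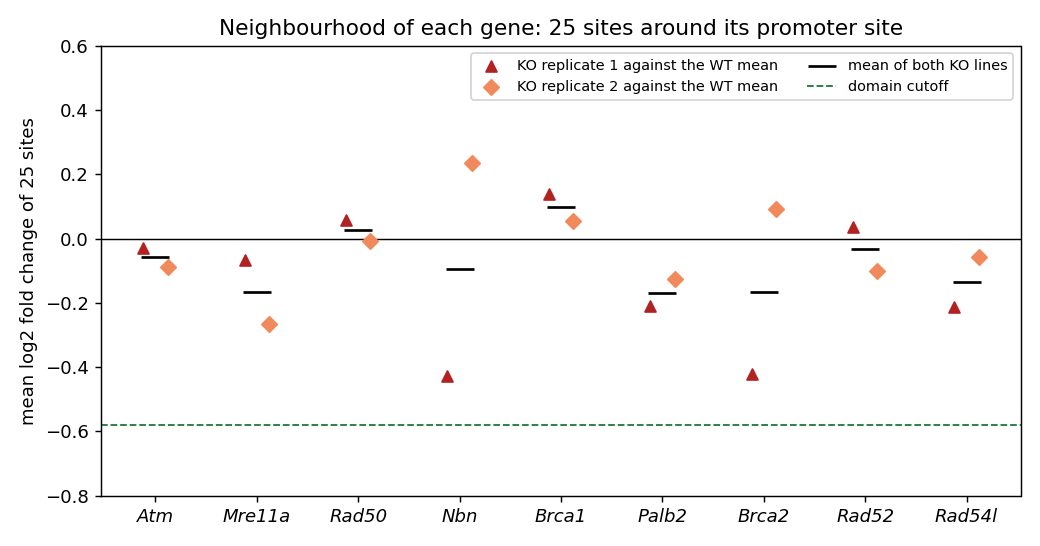
Mean log2 fold change of the 25 sites centred on the promoter site of each gene, for each KO line against the mean of the WT lines (symbols) and for both (black dash); the dashed green line is the domain cutoff of -0.58. Every mean lay between -0.17 and 0.10, and the KO lines were farthest apart around Nbn and Brca2.

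Counting error was smaller than the limma SE at each of the 17 sites. About 9420000 and 11400000 reads lay in sites in WT replicates 1 and 2, and 7830000 and 5650000 in KO replicates 1 and 2, estimated from the steps that scaling leaves in low values. At the Brca1 promoter site this is about 610 to 971 reads per library, and counting alone gives the log2 fold change an SE of 0.05, against 0.09 from limma. At the Brca1 site 15.0 kb inside, about 11.2 to 56.0 reads gave a counting SE of 0.30, against 0.56. A promoter site was present for 9 of 10 fibroblast marker genes, Pdgfra being the one without, with 2809 to 3436 normalized counts in sum. Sites were also present for 4 of 4 epithelial markers (130 to 232 in sum), 2 of 3 endothelial markers (158 to 200, none at Cdh5), 1 of 4 neural markers (166 to 181, Tubb3) and 0 of 3 blood markers. The promoter site of Hat1 held 390 and 384 in WT and 438 and 368 in KO, which does not check the genotype, since a disrupted gene can keep an open promoter.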

How the data were processed

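ATAC-Seq libraries of 4 imMEF lines, 2 per genotype, were analysed from the deposited table of merged sites. Per the submitters' processing notes and the study's methods, paired-end reads were aligned to mm10 with BWA 0.7.12, peaks were called with MACS2 2.1.0 and occupancy was tested with DESeq2. Read filters, the Tn5 offset and whether reads or fragments were counted are not given in the sources used here. Each deposited value is a score, since the authors scaled the counts of every library and rounded them, and no count model was used. The deposited table also holds the authors' own comparison (log2 fold changes, shrunken ones, p-values and adjusted p-values), which was not used.

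Here, limma 3.58.1 (R 4.3.3) with an intensity trend was fitted to log2(value + 1) over all 82325 sites, two-sided, with Benjamini-Hochberg adjustment over all of them. The pseudocount understates changes of low sites. A call needed p under 0.01 with a log2 fold change of 1 or more in size. Genes were taken from GENCODE M21, and no site lay beyond a chromosome's end. The sites named were, per gene, all promoter sites, the strongest other site, sites with unadjusted p under 0.05, and sites with an absolute change of at least 1 and a mean of at least 20. The other 2 sites, in Brca1 and Rad54l, were added so that every site is given. The genes and lists were chosen with earlier results of these data known, as were the call rule and the marker lists. Samples were grouped by genotype label; replicates are numbered in accession order. Read depth was estimated from gaps in low values. Counting SEs cover counting error only, and PCR reads without molecular identifiers are not independent molecules. Alternatives covered the pseudocount, a minimum mean value, scaling, the trend, each library left out, the call rule and the distance around the start.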

Additional observations from a re-analysis of the deposited data

How the results depend on the processing

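No site of the 9 genes, the wider list or the end joining list was called in any alternative limma fit. At an unadjusted p under 0.05, 1 of the 17 sites (Brca1 promoter, p above 0.05 in 6 of its 11 alternatives) and 2579 of all sites passed, and at an adjusted p under 0.05, 0 of all. Calls among all sites were 537 without the intensity trend, and 36 (without WT replicate 2) to 612 (without KO replicate 2) with a library left out, with 71 without WT replicate 1. The median over the promoter sites of the 9 genes was 0.050 with quantile normalization and 0.036 to 0.27 with a library left out. The rule for domains found 0 of 9 genes in all 11 alternatives. Centring on promoter sites was chosen after seeing the data. No paired analysis was possible because accession order gave the replicate numbers and only 1 WT and 1 KO line (WT replicate 1 and KO replicate 2) share a line number in their titles, whose meaning is not stated.

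Of 186 alternative values of the 17 sites, 169 kept their sign and side of the threshold. The Rad54l promoter turned to -0.057 with equal totals, -0.082 with quantile normalization and -0.0035 centred on promoter sites, and Mre11a to -0.025 and -0.090 with the first pair. With a library left out, the sign turned within these ranges: -0.0085 to 0.032 at the Rad54l promoter, -0.022 to 0.11 at Mre11a, -0.14 to 0.063 at the Rad50 promoter, -0.044 to 0.24 at Rad52, -0.0046 to 0.23 at the Brca2 promoter, -0.13 to 0.33 at the site before Brca2, -0.22 to 0.55 at the Brca1 site 11.2 kb inside (also -0.0037), -0.84 to 0.10 at the inner Rad50 site, -0.11 to 0.26 at the inner Nbn site and -1.03 to 0.20 at the Rad54l site 13.1 kb inside. The cause was not tested.

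Summed over the sites of a gene, log2 of mean KO over mean WT was 0.34 for Palb2 and 0.27 for Atm and Nbn. It was 0.24 for Brca1, 0.13 for Rad54l, 0.12 for Brca2, 0.11 for Rad52, 0.04 for Mre11a and -0.07 for Rad50. The mean of the sites' changes was instead -0.16 for Brca1, 0.19 for Rad54l and -0.20 for Rad50. Quantile normalization gave 0.042 for Brca1, 0.079 for Rad54l, -0.090 for Mre11a and 0.087 for Atm, and equal totals gave 0.060 for Rad54l and -0.024 for Mre11a. With a library left out, Rad52 ran from -0.044 to 0.24, Rad50 from -0.19 to 0.063 and Atm from 0.079 to 0.44. Palb2 ran from 0.043 to 0.59 and Nbn from 0.0039 to 0.49. Depth gave counting SEs of 0.052 to 0.37, below the limma SE at all 17 sites.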

Other observations

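Extending the rule to 10 kb around the start of any annotated transcript added a pair of sites, both overlapping a neighbouring gene. The site by Palb2 (chromosome 7, 122101519 to 122102189), at Ndufab1, held 217 and 219 normalized counts in WT and 197 and 262 in KO, a log2 fold change of 0.06 ± 0.21. The site by Rad52 (chromosome 6, 119924222 to 119924729), inside Wnk1, held 122 and 112 in WT and 124 and 108 in KO, a log2 fold change of -0.01 ± 0.25. The groups overlapped at both.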
